A study of Homo sapiens with 6 samples.

Results

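The p53 target genes of DNA repair and metabolism, 10 in number, were followed in A549 cells, an established human lung adenocarcinoma line, after silencing of the long noncoding RNA LINC00525. The members were RRM2B, SESN1, SESN2, TIGAR, TP53I3, DDB2, XPC, POLH, ZMAT3 and PHLDA3, taken as every probe set whose single annotated gene symbol is one of these names. All 10 genes were measured, by 29 of the 49372 probe sets on the array, and at gene level they are 10 of 18132 genes. The tested cells, called knockdown here, are 3 arrays of A549 with LINC00525 silenced. Their reference is 3 arrays of A549 given a scrambled control. Both groups were grown in the same serum-containing medium. Titles mark both groups as "sh", whereas the treatment text speaks of small interfering RNA, and neither a dose nor a time after transfection is given in the sources used here. Nothing says whether replicates came from separate cultures, so p-values measure the spread between these samples only, which may be technical.

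The p53 protein is a transcription factor that DNA damage and other stresses stabilise. Besides the arrest gene CDKN1A and its killer genes, it switches on genes that mend DNA, supply nucleotides and retune metabolism, and these are the subject here. MDM2, itself a target, returns p53 to a low level by marking it for destruction.

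All 3 knockdown titles name LINC00525, but the genotype field gives LINC00526 for knockdown replicate 2 and LINC00527 for knockdown replicate 3. LINC00525 itself, read by 1 dim probe set, had 3.67, 3.45 and 3.54 log2 units on the knockdown arrays, against 3.86, 3.74 and 3.97 on the control arrays. It fell by 0.30 ± 0.075 log2 units (SE, limma adjusted p = 0.0372). The call was lost on leaving out control replicate 1 or 3 or knockdown replicate 2 or 3, with adjusted p up to 0.111. LINC00526, also dim, had 4.28, 4.25 and 4.09 on knockdown replicates 1, 2 and 3, against 4.03, 3.96 and 4.13 on the control arrays. Its groups overlapped and it did not pass (log2 0.17 ± 0.065 SE, limma adjusted p = 0.149). Which transcript was targeted in each sample was not tested. The bacterial and poly-A control spots were brighter on the knockdown arrays, so that scaling to them put the median log2 change of all genes at -0.29 and -0.14, against -0.01 as deposited. The changes given here are thus set against the bulk of the genes measured. The epithelial keratins KRT18 and KRT7 averaged 12.42 and 11.45 in knockdown cells and 12.45 and 11.43 in control cells. PTPRC and DCN, defining markers of leukocytes and fibroblasts, averaged 2.44 and 2.88 in knockdown cells and 2.32 and 3.03 in control cells, within the range of the 17 Tag control spots that match no human transcript (2.27 to 4.60). Of 10 lung epithelial markers KRT19 rose (log2 0.29) and KRT8 fell (log2 -0.15), of 5 measured leukocyte markers CD68, also a lysosomal gene, rose (log2 0.61), and 0 of 5 fibroblast and 0 of 4 endothelial markers passed (1 of each at an unadjusted limma p under 0.05). The part of these in the results was not tested.

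Of the 10 genes of repair and metabolism RRM2B and SESN1 rose, 0 fell and 8 did not pass (limma adjusted p under 0.05 over 18132 genes). For reference, 5.77% of all genes rose, 6.83% fell and 12.6% were called in either direction. SESN2 and PHLDA3 had all 3 knockdown arrays above all 3 control arrays but did not pass. With RRM2B and SESN1 that makes 4 of the 10 genes with the knockdown group wholly above, against 12.9% of all genes, and 0 wholly below, against 17.9%. TIGAR, TP53I3, DDB2, XPC, POLH and ZMAT3 had log2 changes between -0.06 and -0.01. Over the 10 genes the median log2 change was -0.01, the same as over all genes (-0.01). By probe set, 10 of the 29 rose and 0 fell, against 4.64% and 5.25% of all probe sets (9.89% in either direction). That count of 10 was 1 without control replicate 2, 3 without knockdown replicate 2, 4 without control replicate 3 and 6 without control replicate 1, and without control replicate 2 the gene count was 1 of 10. Of those 29, 14 had the knockdown group wholly above, against 11.9% of all probe sets, and 0 wholly below, against 16.8%. With knockdown replicates 2 and 3, the arrays with another gene in the genotype field, left out, 0 of the 10 genes passed, as 1 knockdown array was then set against 3 control arrays and 256 genes in all were called. That lone array is assumed to vary like the control arrays. The RRM2B and SESN1 log2 changes were then 0.19 and 0.32. In bulk RNA a change in the share of cells and a change in RNA per cell cannot be told apart. Because 9 of the 29 probe sets belong to RRM2B and share its transcript, these probe set counts do not count independent genes.

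**Figure D1:**
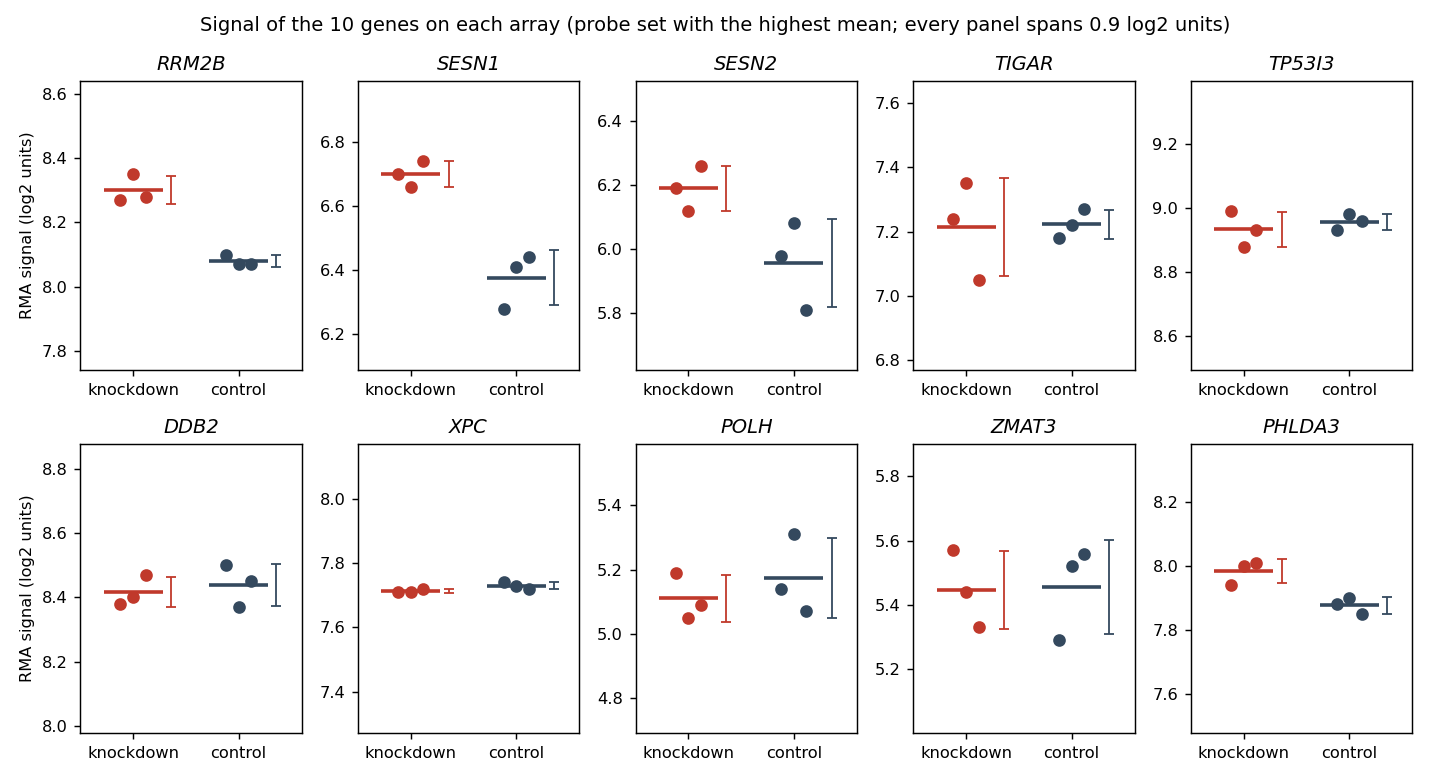
RMA signal in log2 units on each of the 6 arrays for the 10 genes, knockdown left and control right; points are arrays, lines are group means and the bars beside them are SD (n = 3). RRM2B, SESN1, SESN2 and PHLDA3 have no overlap between the groups, and in the other panels the groups overlap.

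RRM2B, the p53-inducible small subunit of ribonucleotide reductase that supplies deoxynucleotides for repair and for mitochondrial DNA, rose at 8 of its 9 probe sets. The brightest one had 8.27, 8.35 and 8.28 log2 units on the knockdown arrays, against 8.10, 8.07 and 8.07 on the control arrays. Every knockdown array was above every control array. That is 1.16-fold (95% interval 1.09 to 1.24; log2 0.22 ± 0.039 SE, limma adjusted p = 0.0115). The size of the rise depended on the probe set read. A dimmer RRM2B probe set, the one with the largest change, had 6.19, 6.64 and 6.53 on the knockdown arrays, against 6.03, 5.88 and 6.06 on the control arrays (log2 change 0.46 ± 0.11 SE, adjusted p = 0.036 over 49372 probe sets). The one RRM2B probe set that missed the threshold had 5.95, 6.41 and 6.31 on the knockdown arrays, against 5.80, 5.66 and 5.89 on the control arrays (log2 0.44 ± 0.12 SE, adjusted p = 0.0508). Its change was thus among the largest of the gene and its spread too. With all 9 averaged, the log2 change of RRM2B was 0.36 (limma adjusted p = 0.0108), over 1.5 times that of the brightest probe set.

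Across the 9 RRM2B probe sets knockdown replicate 1 was the lowest of the 3 knockdown arrays at 9 of 9. The mean over the 9 was 6.58, 6.82 and 6.83 on knockdown replicates 1, 2 and 3, against 6.39, 6.33 and 6.43 on control replicates 1, 2 and 3. The groups therefore stayed apart, with knockdown replicate 1 nearest to the control arrays. At gene level the RRM2B call was lost without control replicate 2 (adjusted p = 0.0503) and held when any other single array was left out. The probe set calls of RRM2B depended more on single arrays. Of its 9 probe sets, 0 passed without control replicate 2, 1 without knockdown replicate 2, 3 without control replicate 3, 4 without control replicate 1 and 5 without knockdown replicate 3, whereas 9 passed without knockdown replicate 1. The one with the largest change passed in 1 of these 6 fits. At gene level, read at the brightest probe set, the RRM2B log2 change scaled to the hybridization controls was -0.06 (adjusted p = 0.534). Scaled to the poly-A controls, this gene-level change was 0.09 (adjusted p = 0.172).

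**Figure D2:**
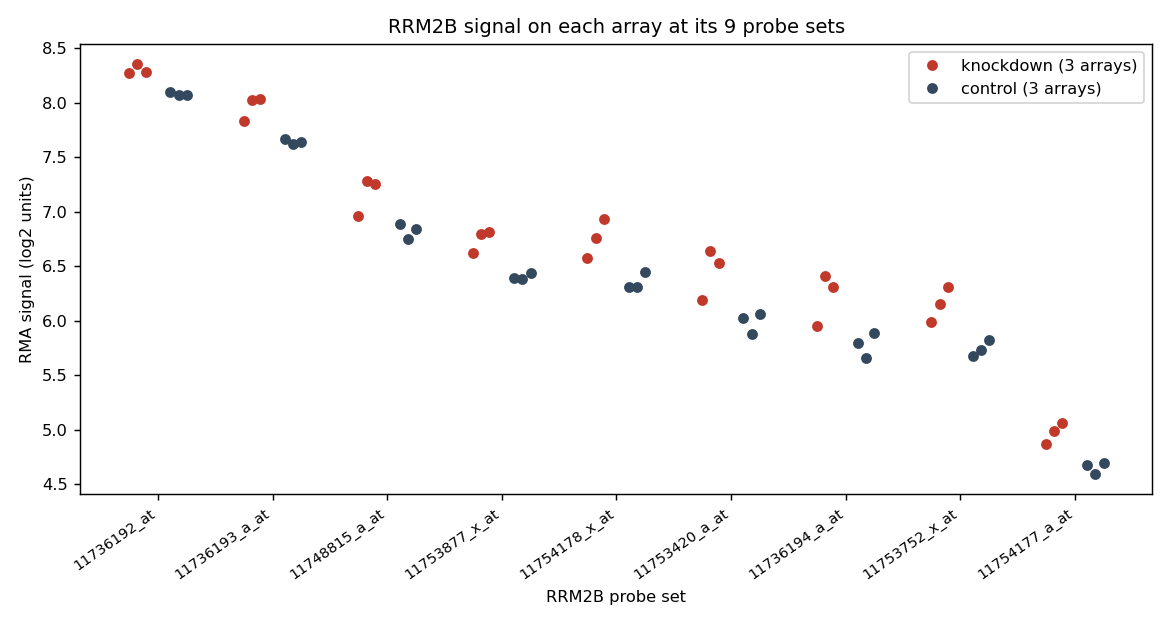
RMA signal in log2 units (vertical axis) of the 9 RRM2B probe sets, ordered by brightness (horizontal axis), with 3 knockdown and 3 control arrays as points. At each of the 9 the lowest knockdown array is above the highest control array.

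The other ribonucleotide reductase subunits fell. RRM1, the large catalytic subunit that every ribonucleotide reductase needs, had 9.16, 9.11 and 9.21 log2 units on the knockdown arrays, against 9.56, 9.50 and 9.55 on the control arrays. RRM1 fell by 0.38 ± 0.042 (SE, limma adjusted p = 0.00165), and fell at 4 of its 4 probe sets. RRM2, the S-phase small subunit that takes the place of RRM2B in dividing cells, had 9.37, 9.32 and 9.37 on the knockdown arrays, against 9.57, 9.55 and 9.54 on the control arrays. It fell by 0.20 ± 0.036 (SE, limma adjusted p = 0.0128), a call lost without control replicate 2 (adjusted p = 0.0503). Subtracted array by array, the log2 change of RRM2B exceeded that of RRM1 by 0.60 and that of RRM2 by 0.42. For both differences the groups did not overlap, which was fixed in advance, as RRM2B lay wholly above and RRM1 and RRM2 wholly below. The exact permutation test (2-sided) thus had to give p = 0.1, the smallest value that 3 arrays against 3 allow. It adds nothing to the calls of the 3 genes. Adjusted over these 2 pairs, which were chosen after their values were seen, it was also 0.1. The wider list of deoxynucleotide supply genes held 5 falls and 1 rise among 8 measured, with a median log2 change of -0.18. Besides RRM1 and RRM2, thymidine kinase TK1 fell by 0.29 and thymidylate kinase DTYMK by 0.28, and DCK fell by 0.16, a call that did not survive the removal of any 1 array. The 1 that rose was SAMHD1, which breaks down deoxynucleotides and is also interferon-inducible (6.83, 6.73 and 6.87 in knockdown cells, against 6.22, 6.12 and 6.04 in control cells; log2 0.68 ± 0.059 SE, limma adjusted p = 0.000473).

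**Figure D3:**
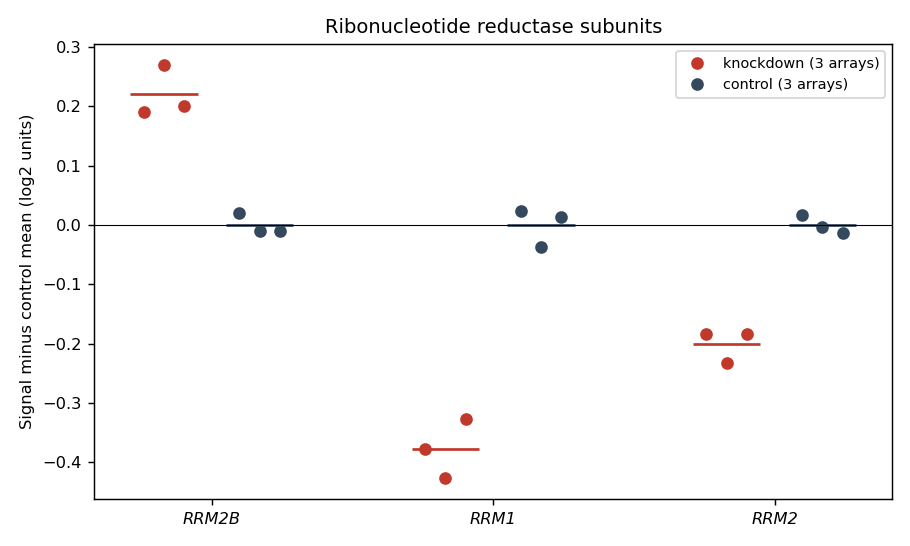
Signal of RRM2B, RRM1 and RRM2 on each array minus that gene's control mean, in log2 units; points are arrays and short lines group means. Knockdown arrays lie above 0 for RRM2B and below 0 for RRM1 and RRM2.

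SESN1 encodes sestrin 1, a stress protein that holds back the growth kinase complex mTORC1 through the GATOR complexes and helps to limit peroxides. At the brighter of its 2 probe sets SESN1 had 6.70, 6.66 and 6.74 log2 units on the knockdown arrays, against 6.28, 6.41 and 6.44 on the control arrays. All knockdown arrays lay above all control arrays. It rose 1.25-fold (95% interval 1.15 to 1.36; log2 0.32 ± 0.052 SE, limma adjusted p = 0.00765), the largest change among the 10 genes at their brightest probe sets. With the probe sets of each gene averaged, RRM2B (log2 0.36) was above SESN1 (log2 0.29). The second SESN1 probe set had 6.10, 6.04 and 6.14 on the knockdown arrays, against 5.88, 5.86 and 5.80 on the control arrays, and also rose (log2 0.25 ± 0.047 SE, adjusted p = 0.0158 over all probe sets), a call lost without control replicate 2 or 3 (adjusted p up to 0.0603). The gene-level call for SESN1 held without any single array (adjusted p of 0.0187 to 0.0291). It was lost when scaled to the hybridization controls (log2 0.04, adjusted p = 0.673) and without variance moderation (adjusted p = 0.0516).

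SESN2, sestrin 2, is a leucine-binding sensor of the same family and is a target of the amino acid stress factor ATF4 as well as of p53. Its brighter probe set had 6.19, 6.12 and 6.26 log2 units on the knockdown arrays, against 5.98, 6.08 and 5.81 on the control arrays. The groups did not overlap, but control replicate 2 came close to the lowest knockdown array. The log2 change was 0.23 ± 0.072 (SE, 95% interval 0.07 to 0.40, limma adjusted p = 0.0791), which did not pass. Its other probe set, with the suffix _s_at, had 5.51, 5.74 and 5.58 on the knockdown arrays, against 5.61, 5.57 and 5.53 on the control arrays, and the groups overlapped (log2 0.04 ± 0.063 SE). SESN2 passed with an intensity trend and robust priors (adjusted p = 0.0247) and turned to -0.05 when scaled to the hybridization controls. SESN3, the remaining sestrin, was at 2.37 in knockdown and 2.40 in control cells, within the range of the Tag spots. In the list of sestrin partners and mTORC1 amino acid sensors 2 of 24 rose, 2 fell and 20 did not pass (median log2 change -0.03). The arginine sensor CASTOR1 rose 1.50-fold (log2 0.58 ± 0.043 SE, limma adjusted p = 0.000227) and the GTPase RRAGD 1.29-fold (lost when scaled to the hybridization controls and without variance moderation), whereas CASTOR2 fell by 0.21 and the GATOR subunit SEC13 by 0.13. The CASTOR2 call was lost without control replicate 1 or 2 or knockdown replicate 2 or 3, and the SEC13 call without any of the 6 arrays.

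Of the 10 genes, 8 had promoter windows in the RefSeq table (GRCh38.p14), 12 windows in all, each from 250 bases before to 50 after an annotated start; RRM2B and PHLDA3 had none. The windows were searched on both strands for the p53 half-site consensus, for 2 such half-sites with 0 to 13 bases between them, and for the ATF4 element TGATGNAA. A half-site was found in 6.63% of all 35116 windows, a full site in 0.0285% (10 windows) and the ATF4 element in 3.62%. Among the members the full site was found only in DDB2 and a lone half-site only in SESN1, and the ATF4 element in none of the 12 windows. They are shown because a gene that rose and a gene that showed no detectable change each carry such letters, with the half-sites in capitals, 5′ to 3′ along the gene. The DDB2 stretch lies just downstream of a start (chr11:47214975-47215004, plus strand) and the SESN1 stretch upstream of one (chr6:109008989-109009138, minus strand).
DDB2: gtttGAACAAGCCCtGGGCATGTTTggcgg
SESN1: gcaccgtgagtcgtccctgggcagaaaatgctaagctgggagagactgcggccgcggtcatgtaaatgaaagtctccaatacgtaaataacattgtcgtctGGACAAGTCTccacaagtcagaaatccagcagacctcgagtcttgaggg
A match describes the letters only, and elements of these genes outside the windows were not searched. Of the 10 genes with a full site in a window, 4 were measured on the array, and 0 of those 4 passed the test.

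DDB2 recognises ultraviolet lesions in chromatin as part of a ubiquitin ligase with DDB1, the first step of global nucleotide excision repair. DDB2, whose promoter stretch with the full p53 site is printed above, had 8.38, 8.40 and 8.47 log2 units on the knockdown arrays, against 8.50, 8.37 and 8.45 on the control arrays. The groups overlapped, and the log2 change was -0.02 (95% interval -0.13 to 0.09, limma adjusted p = 0.809). Its second probe set had 7.10, 7.05 and 7.09 on the knockdown arrays, against 7.02, 6.98 and 7.01 on the control arrays. There the groups did not overlap, at a log2 change of 0.08 ± 0.041 (SE, adjusted p = 0.295). DDB1, its partner, had 8.79, 8.76 and 8.84 in knockdown cells, against 8.95, 8.95 and 8.98 in control cells. DDB1 fell by 0.16 ± 0.038 (SE, limma adjusted p = 0.0318), a call that held on leaving out knockdown replicate 3 and failed on the removal of any other array (adjusted p of 0.0422 to 0.103). Of 4 DDB1 probe sets 1 fell and 3 did not pass, the second brightest being at a log2 change of -0.01 with overlapping groups (adjusted p = 0.893).

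XPC, the damage sensor that opens DNA around distorted bases, had the smallest spread of the 10. It stood at 7.71, 7.71 and 7.72 log2 units on the knockdown arrays, against 7.74, 7.73 and 7.72 on the control arrays. The groups met at 7.72, and the 95% interval of the log2 change ran from -0.10 to 0.06 (adjusted p = 0.81), so that a rise of the size seen for RRM2B lies outside it. At the second XPC probe set the log2 change was -0.04 ± 0.043 (SE). RAD23B, which stabilises XPC, averaged 9.77 in knockdown and 9.75 in control cells (log2 0.01, adjusted p = 0.868). Among 19 measured genes of nucleotide excision repair 0 rose, 3 fell and 16 did not pass (median log2 change -0.02). The fallers were DDB1, ERCC8 (log2 -0.23), of the transcription-coupled branch, and RPA1 (log2 -0.16), of the single-strand binding protein. The ERCC8 call was lost on leaving out control replicate 1 or 2 or knockdown replicate 1 or 3, and the RPA1 call without any of the 6 arrays.

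POLH encodes DNA polymerase eta, which copies past ultraviolet damage. Its brightest probe set had 5.19, 5.05 and 5.09 log2 units on the knockdown arrays, against 5.14, 5.31 and 5.07 on the control arrays. The highest value came from a control array, and the log2 change was -0.06 ± 0.069 (SE, 95% interval -0.22 to 0.10, limma adjusted p = 0.624). None of its 4 probe sets passed, with log2 changes from -0.06 to 0.08, and 1 Tag spot lay above the control signal of the 2 dimmest. Of 11 genes of translesion synthesis 1 rose, 2 fell and 8 did not pass (median log2 change -0.05). The sister polymerase POLK rose (6.32, 6.50 and 6.34 in knockdown cells, against 6.16, 6.22 and 6.04 in control cells; log2 0.25 ± 0.066 SE, limma adjusted p = 0.0485), a call that did not survive the removal of any 1 array. The deubiquitinase USP1, which acts on PCNA, fell by 0.25 ± 0.038 (SE, adjusted p = 0.00622), and the PCNA ligase RAD18 fell by 0.18, a call that did not survive the removal of any 1 array.

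TIGAR, a phosphatase that lowers fructose-2,6-bisphosphate and so turns glucose towards the pentose phosphate pathway, had 7.24, 7.35 and 7.05 log2 units on the knockdown arrays. Its control arrays had 7.18, 7.22 and 7.27. Knockdown arrays held both the highest and the lowest value, and the log2 change was -0.01 (95% interval -0.18 to 0.16, limma adjusted p = 0.95). The second TIGAR probe set gave 0.02 ± 0.053 (SE). Of 16 measured genes of glycolysis control and the pentose phosphate pathway 2 rose and 3 fell (median log2 change -0.005). Phosphofructokinase PFKP and the bifunctional enzyme PFKFB4 rose by log2 0.21 and 0.27, and RPE, PFKFB3 and PGD fell by 0.21, 0.19 and 0.16. Of 4 PFKFB3 probe sets 3 fell and 1 did not pass, with log2 changes from -0.44 to -0.19. At gene level only the PFKP and RPE calls held without every single array in turn. The PFKP and PFKFB4 calls were lost when scaled to either set of control spots.

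TP53I3, a quinone oxidoreductase linked to reactive oxygen, was read by 1 probe set. It had 8.99, 8.88 and 8.93 log2 units on the knockdown arrays, against 8.93, 8.98 and 8.96 on the control arrays. The groups overlapped, and the 95% interval of the log2 change was -0.12 to 0.07 (adjusted p = 0.783). In the list of quinone reductases and peroxide-removing enzymes 1 of 14 rose, 2 fell and 11 did not pass (median log2 change -0.04). SRXN1, which repairs peroxiredoxins, fell by 0.25 ± 0.037 (SE, limma adjusted p = 0.00611). NQO2 fell by 0.17 and VAT1 rose by 0.18, and neither call survived the removal of any 1 array.

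ZMAT3 is a zinc finger protein that binds RNA and acts on splicing and message stability. Its brighter probe set had 5.57, 5.44 and 5.33 log2 units on the knockdown arrays, against 5.29, 5.52 and 5.56 on the control arrays. The 2 groups spanned nearly the same range, and the log2 change was -0.01 (95% interval -0.21 to 0.19, limma adjusted p = 0.959). Its second probe set gave 0.03 ± 0.079 (SE). The standard error at the brighter ZMAT3 probe set, 0.086, was the highest of the 10 genes at gene level. None of the 5 genes of the list made of other ZMAT genes and ELAVL1 passed (0 at an unadjusted limma p under 0.05; median log2 change -0.02).

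PHLDA3 consists of little more than a pleckstrin homology domain and keeps the kinase AKT from the membrane. It had 7.94, 8.0 and 8.01 log2 units on the knockdown arrays, against 7.88, 7.90 and 7.85 on the control arrays at its brightest probe set. The groups did not overlap, though control replicate 2 lay close to knockdown replicate 1. The log2 change was 0.11 ± 0.039 (SE, 95% interval 0.02 to 0.20, limma adjusted p = 0.124), and the other 2 probe sets gave 0.06 and 0.03 with overlapping groups. PHLDA3 passed after cyclic loess (adjusted p = 0.0486) and with an intensity trend and robust priors (adjusted p = 0.0469). It was at -0.17 when scaled to the hybridization controls. PHLDA1, a relative of PHLDA3, had 9.61, 9.67 and 9.65 in knockdown cells, against 9.29, 9.23 and 9.29 in control cells. PHLDA1 rose 1.30-fold (log2 0.37 ± 0.039 SE, limma adjusted p = 0.00121), and at 4 of its 4 probe sets (call lost when scaled to the hybridization controls). It was the 1 gene of 8 measured in the list of AKT signalling and PHLDA genes to pass (median log2 change -0.05). PHLDA2 averaged 6.80 in knockdown and 6.65 in control cells (adjusted p = 0.15).

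**Figure D4:**
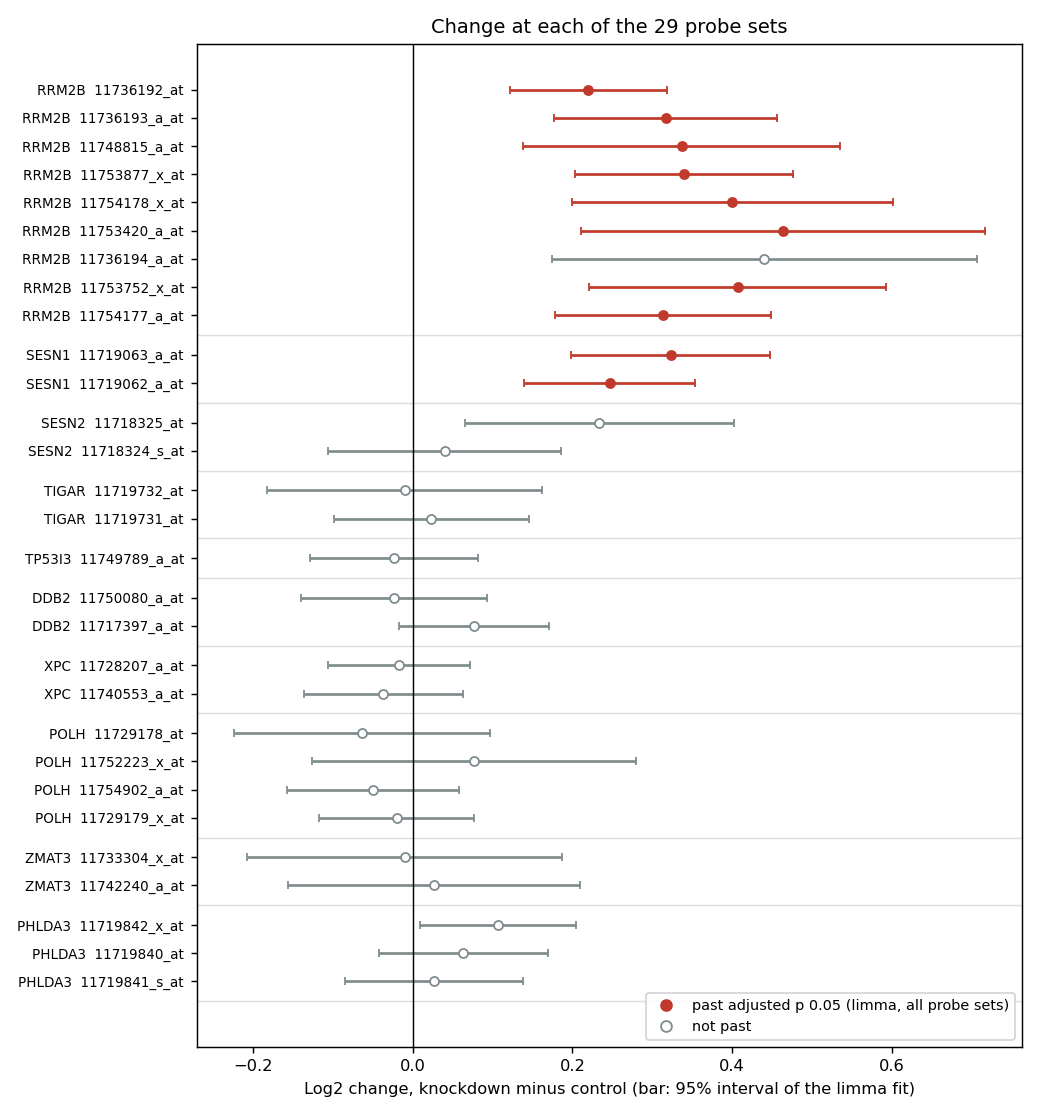
Log2 change, knockdown minus control, at each of the 29 probe sets, grouped by gene; bars are 95% intervals of the limma fit over all probe sets and filled points passed an adjusted p of 0.05. The 10 filled points belong to RRM2B (8) and SESN1 (2).

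The better-known p53 targets of growth arrest, death and feedback give the setting for these values. Of 23 measured genes in that list 12 rose, 0 fell and 11 did not pass, with a median log2 change of 0.22 against -0.01 over all genes. The stress cytokine GDF15 had 10.20, 10.32 and 10.34 log2 units in knockdown cells, against 9.26, 9.26 and 9.18 in control cells, and rose 2.08-fold. GADD45A rose by log2 0.89, the killer gene BBC3 by 0.84 and CDKN1A, the gene in the title of the study, by 0.55 ± 0.055 (SE, limma adjusted p = 0.00089). These 12 calls held without each single array in turn, and scaled to the hybridization controls 4 of the 23 rose and 7 fell. Both lists were chosen with results of these arrays known, and the difference between 2 of 10 and 12 of 23 was not tested. Of the regulators of p53, MDM2 rose by 0.37 ± 0.063 (SE, limma adjusted p = 0.00928; lost when scaled to the hybridization controls and without variance moderation) at its brightest probe set, while 4 of its 11 probe sets rose and 7 did not pass, with log2 changes from 0 to 0.58. MDM4 was at -0.04 (adjusted p = 0.698). Of 8 other measured regulators, a list that does not hold MDM2, 0 rose and 3 fell (median log2 change -0.10), namely the deubiquitinase USP7 (log2 -0.19) and the checkpoint kinases CHEK1 (-0.19) and ATR (-0.18). The USP7 call held only without knockdown replicate 3, the CHEK1 call only without knockdown replicate 1, and the ATR call failed whichever array was removed.

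Genes of the ATF4 response, a list that leaves out the ATF4 target SESN2, held 6 rises and 0 falls among 13 (4 or 5 rises on leaving out 1 array). DDIT3, the stress factor CHOP, had 6.34, 6.47 and 6.45 log2 units in knockdown cells, against 5.15, 5.14 and 5.06 in control cells. It rose 2.47-fold (log2 1.30 ± 0.049 SE, limma adjusted p = 7.81e-06). ATF3 rose by log2 0.71, TRIB3 by 0.35 and DDIT4 by 0.33, and the calls of these 4 held without each single array in turn. The median log2 change of the list was 0.06. Scaled to the hybridization controls 2 of the 13 rose and 7 fell.

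**Figure D5:**
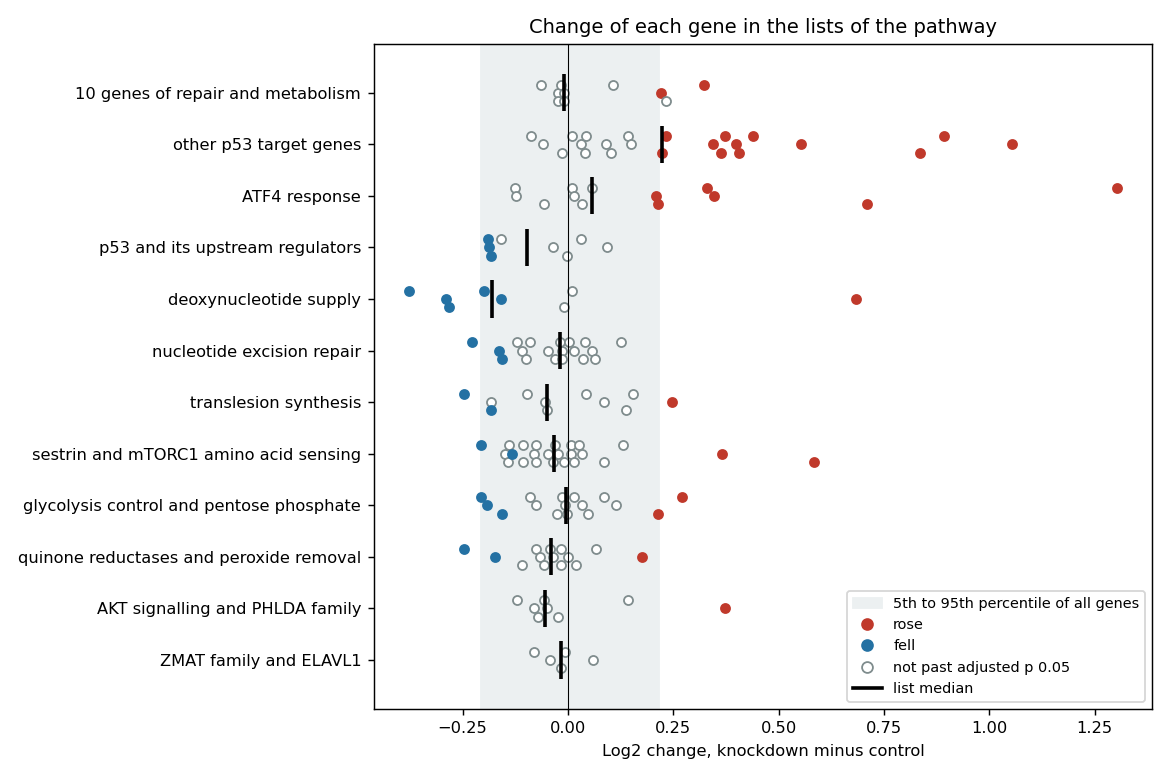
Log2 change, knockdown minus control, of every measured gene in the lists (rows), with the 10 genes of repair and metabolism on top; black ticks are list medians and the grey band is the 5th to 95th percentile of all genes (-0.21 to 0.22). Of the 10 genes, SESN1, SESN2 and RRM2B reach the right edge of the band or beyond, and TIGAR, TP53I3, DDB2, XPC, POLH and ZMAT3 lie near 0.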

How the data were processed

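Signals of 49372 probe sets on 6 one-colour arrays were used in log2 units, as the authors deposited them. RMA (background correction, quantile normalization, probe set summary) is the single tool in the submitters' processing notes, with no settings stated there. The array medians were 5.10 to 5.11, so no further normalization was applied. Quantile normalization removes changes shared by most genes. Probe sets with exactly 1 symbol (44994) were named by GEO's platform annotation, with symbols updated by gene identifier through the GRCh38.p14 gene table. Of the probe sets of a gene the one with the highest mean over the 6 arrays stood for it, which gave 18132 genes.

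Knockdown was compared with control in limma 3.58.1 (R 4.3.3; lmFit, eBayes, 2-sided, no covariate), once over all genes and once over all probe sets, with Benjamini-Hochberg adjusted p under 0.05 as the threshold. The script was tested on simulated data. The number of arrays limits the precision. The members, the 11 pathway lists, the 4 marker lists and the naming rule (all members and their direct partners, and up to 4 rises and 4 falls of a list, by size) were chosen with earlier results of these data known. Alternatives changed the probe set rule, the scaling, the variance prior, a filter on dim probe sets, a replicate block and each array left out. RefSeq promoter windows were searched by letters. Figures were drawn with matplotlib 3.10.9.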

Additional observations from a re-analysis of the deposited data

How the results depend on the processing

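The 10 gene values were recomputed under 16 settings, 6 of them leaving out 1 array, and 118 of 160 values kept direction and side of the threshold. Scaled to the hybridization controls (18 probe sets), the calls came to 15317 genes and 40833 probe sets (2285 and 4882 in the reported fit), with 6 of the 10 genes past the threshold, 0 risen and 6 fallen, and 16 of their 29 probe sets past it. SESN2 was then at -0.048, RRM2B at -0.061 and PHLDA3 at -0.17. Scaled to the poly-A controls (27 probe sets), 7533 genes and 18478 probe sets were called, 1 of the 10 rose, 2 fell (DDB2 and XPC), and PHLDA3 was at -0.020. Of the 29 probe sets 8 then rose and 2 fell. An intensity trend with robust priors called 3502 genes and 8093 probe sets, and 4 of the 10, all risen. Without variance moderation 1314 genes, 2301 probe sets, 1 of the 10 (risen) and 1 of the 29 were called. Leaving out 1 array gave 1104 to 1575 genes, 2244 to 3570 probe sets, 1 to 2 of the 10 genes (1 to 2 risen) and 1 to 11 of the 29. The lowest counts came without control replicate 2. Without both arrays whose genotype field names another gene, a setting chosen after seeing the data, 256 genes, 505 probe sets, 0 of the 10 (0 risen) and 0 of the 29 were called, with TIGAR at 0.017, TP53I3 at 0.033, POLH at 0.017 and ZMAT3 at 0.11.

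Genes near 0 changed sign without passing. As the mean of their probe sets TIGAR was at 0.0067, DDB2 at 0.027 and ZMAT3 at 0.0083, and without _s_at and _x_at probe sets ZMAT3 was at 0.027. After cyclic loess TIGAR was at 0.018, TP53I3 at 0.0080, DDB2 at 0.0085, XPC at 0.014 and ZMAT3 at 0.0076. Leaving out 1 array, TIGAR ran from -0.078 to 0.072, TP53I3 from -0.052 to 0.0033, DDB2 from -0.058 to 0.0067, POLH from -0.12 to 0.005 and ZMAT3 from -0.093 to 0.048. Cyclic loess gave 1290 rises and 909 falls over all genes, against 1046 and 1239 in the reported fit. With the replicate number as a block 1565 genes (818 risen, 747 fallen) and 2 of the 10 were called. The deviations of same-numbered arrays from their group means had correlations of 0.093, 0.063 and -0.0075. These values cannot settle whether same-numbered arrays were handled together. The cause of these changes was not tested. Signal near the Tag spots limits LINC00525, LINC00526, SESN3 and the 2 dimmest POLH probe sets.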
